A study of Mus musculus with 6 samples.

Results

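The 10 genes described here are well-known targets of the transcription factor NF-kB that act in vascular inflammation: the feedback inhibitors Nfkbia and Tnfaip3, the adhesion molecules Vcam1 and Icam1, the chemokines Ccl2, Cxcl1 and Cx3cl1, the cytokines Csf1 and Il6, and the transcription factor Irf1. They were chosen by gene symbol, and all 10 were matched among the 35275 genes of the deposited table. RNA of whole aorta from laboratory mice was sequenced in 6 libraries, 3 wild-type and 3 EC-Jag1KO. The label of the mutant denotes loss of Jag1, a ligand of Notch receptors, from endothelial cells, and it gives nothing more. No source used here states the driver or timing of the deletion, the strain, the age, or whether each library is a single animal. A p-value therefore reflects only how far these libraries spread, which may be technical.

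NF-kB proteins are held in the cytoplasm by inhibitors of the I-kappa-B family until a kinase complex, IKK, marks the inhibitor for destruction. The freed dimers bind kappaB sites in DNA and switch on inflammatory genes, and among them the genes of their own inhibitors, which closes a negative feedback loop. In an inflamed artery the endothelium displays adhesion molecules and chemokines that draw leukocytes from the blood into the wall.

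The bases just before the gene start are shown first, since several of them hold the letters that NF-kB is known to bind. RefSeq promoter windows on GRCm38.p6, the assembly that mm10 denotes, hold 250 bases before and 50 bases from the start of a gene. They were matched for 8 of the 10 genes, Vcam1 and Ccl2 aside, in 10 windows, since Tnfaip3 and Irf1 have a further start whose window held no match. The search used 3 motifs on both strands: the kappaB consensus and the spelled variants GGANTTTCC and GGAAATTCC, which overlap one another. At least 1 of these motifs was found in 7 of the 8 genes, in 7 of their 10 windows, against 9.14% of 32544 windows of the same length. Since the genes are known NF-kB targets, this contrast describes which genes were listed and is no finding of these data. The consensus alone was in 8.49% of windows, GGANTTTCC in 1.26% and GGAAATTCC in 0.32%. In the lines that follow, each stretch runs 5′ to 3′ on the strand of the gene, from 10 bases before the first match to 10 bases after the last, with the matched bases in capitals.
Nfkbia (chr12:55492657-55492835, minus strand): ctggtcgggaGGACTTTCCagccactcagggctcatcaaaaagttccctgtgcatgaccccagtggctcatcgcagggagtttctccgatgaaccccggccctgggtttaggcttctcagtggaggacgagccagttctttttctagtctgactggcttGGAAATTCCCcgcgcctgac
Tnfaip3 (chr10:19015403-19015545, minus strand): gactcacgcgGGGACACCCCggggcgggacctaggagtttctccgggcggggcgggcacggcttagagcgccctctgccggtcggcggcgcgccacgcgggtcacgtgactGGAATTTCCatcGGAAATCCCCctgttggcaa
Icam1 (chr9:21015777-21015805, plus strand): acttcagtttGGAAATTCCtagatcgcag
Cxcl1 (chr5:90891164-90891194, plus strand): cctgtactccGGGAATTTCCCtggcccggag
Csf1 (chr3:107760604-107760633, minus strand): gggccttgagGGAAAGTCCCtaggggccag
Il6 (chr5:30013060-30013089, plus strand): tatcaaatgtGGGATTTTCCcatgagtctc
Irf1 (chr11:53769991-53770020, plus strand): agtccgggccGGGGAATCCCgctaagtgtt

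The Nfkbia stretch carries 2 separate matched blocks, of which the nearer ends at base -20, counted back from the gene start. In Tnfaip3 there were 3 blocks, and a GGAATTTCC block was separated by only 3 bases from the next, which ended at base -3. Cxcl1 and Il6 each had a single block, starting at bases -71 and -44, and those of Icam1 and Csf1 lay farther out, at bases -153 and -154. In Irf1 the block GGGGAATCCC ended at base -4. The Cx3cl1 window held none of the 3 motifs. These matches describe the sequence only, and binding was not measured.

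**Figure D1:**
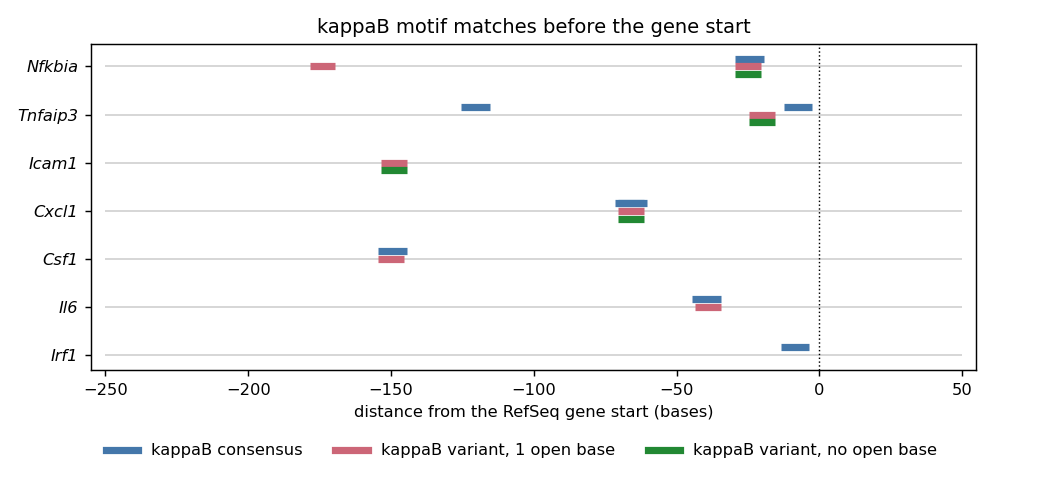
Positions of kappaB motif matches in the promoter windows of 7 genes, with the distance from the RefSeq gene start in bases on the x axis and 1 line per gene. Colours mark the 3 motifs (the variant with 1 open base is GGANTTTCC and the one with none is GGAAATTCC), and matches of different motifs lie on top of each other in every gene shown but Irf1.

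Between 19889910 and 25914325 reads per library fell in genes, and 8 of the 10 genes reached the mean of 1 FPKM (fragments per kilobase, a level corrected for gene length and library size) needed for the test, while Ccl2 and Il6 did not. Jag1 itself had 9.86 to 16.9 FPKM in wild-type aorta and 9.42 to 19.6 FPKM in EC-Jag1KO aorta, and since other cells of the wall also make it, this whole-gene value does not check the deletion. Of 7 smooth muscle markers 0 were at 0 in every library, and their summed level of 13930 to 14612 FPKM in wild-type lay above the 11605 to 13829 FPKM of EC-Jag1KO libraries. The 7 did not move together, since 4 were lower without overlap, beside 6.73% of all tested genes. Myocd, a transcriptional coactivator of smooth muscle genes, was higher without overlap (log2 fold change 0.46, adjusted p = 0.613), while Acta2 and Cnn1 overlapped. Acta2, at 6173 to 7672 FPKM, is a large part of the sum. The sum of 10 endothelial markers overlapped, at 324 to 489 against 371 to 456 FPKM, as did that of 8 matched macrophage markers, at 192 to 249.6 against 224 to 254 FPKM. For 7 fibroblast markers the sums overlapped, at 1178 to 1421 against 1298 to 1404 FPKM. Of these 7, Pdgfra, Lum and Cd34 were higher in EC-Jag1KO aorta without overlap, 3 of 7 beside 6.84% of all tested genes. In the other direction 0 were without overlap, and the smallest adjusted p of the 7 was 0.443 in limma. The 6 mesothelial markers summed to 0.400 to 0.530 against 1.34 to 2.51 FPKM, without overlap. Of these 6, 0 reached the mean needed for the test, with 2 to 14 reads for Msln and 8 to 49 for Krt19. EC-Jag1KO replicate 3 stood apart in neutrophil genes, with a sum of 82.5 FPKM over 7 markers against 0.623 to 12.0 FPKM in the other 5 libraries. The 5 erythroid markers, which report blood in the tissue, all had lower means in EC-Jag1KO aorta, with a median log2 fold change of -1.39. Of these 5, 4 had an unadjusted limma p under 0.05, beside 7.71% of all tested genes, and the smallest adjusted p was 0.585. Their sums of 740 to 1518 against 190 to 918 FPKM overlapped, and 0 of the 5 separated the genotypes. Wild-type replicate 2 stood apart in 6 adipocyte markers, with a sum of 264 FPKM against 715 to 1614 FPKM elsewhere. EC-Jag1KO replicate 3 and wild-type replicate 3 are the 2 that express Xist, the transcript of the inactive X chromosome, at 40.7 and 26.9 FPKM. In whole tissue fewer cells of a type and less RNA per cell cannot be told apart.

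Among the 10 genes Nfkbia was the most abundant in aorta, and it had the smallest p of the 8 that were tested. Of the 8 tested genes 0 passed limma's test at an adjusted p of 0.05, as did 0 of all 12165 tested genes (0%). At an unadjusted p under 0.05 there was 1 of the 8, Nfkbia, where 7.71% of all tested genes stood. The 2 genotypes did not overlap in 2 of the 8 genes, Nfkbia and Irf1, which compares with 13.6% of all tested genes. Nfkbia was the 1 with EC-Jag1KO higher (6.84% of tested genes) and Irf1 the 1 with EC-Jag1KO lower (6.73%). The log2 fold changes of the 8 had a median of -0.033, beside -0.00022 over all tested genes, with 2 above 0 and 6 below.

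**Figure D2:**
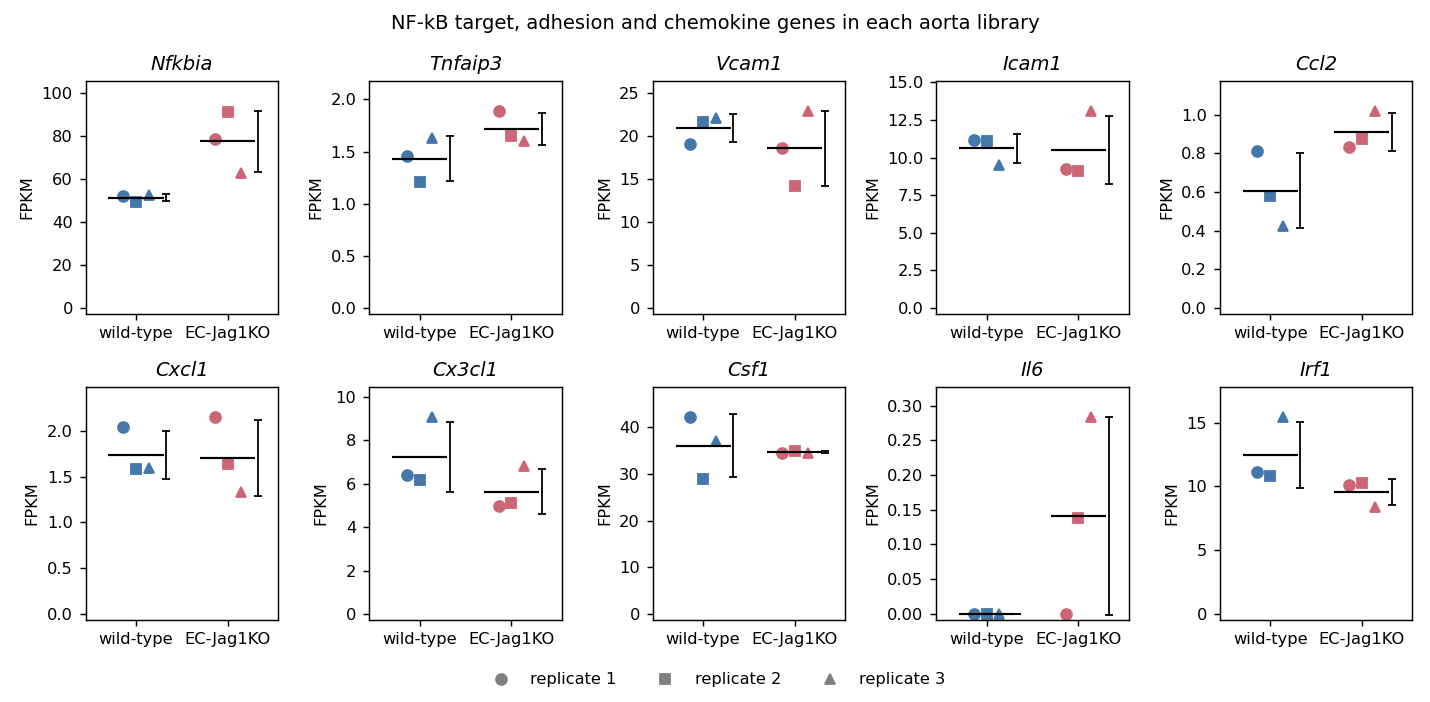
FPKM of each of the 10 genes in the 3 wild-type (blue) and 3 EC-Jag1KO (red) libraries, 1 symbol per replicate, with the mean as a horizontal line and the SD as the bar beside it. Each panel has its own linear axis. The genotypes do not overlap in Nfkbia, Ccl2 and Irf1, beside 13.6% of all tested genes, and Ccl2 was too low for the test.

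Nfkbia encodes I-kappa-B alpha, the inhibitor that NF-kB induces to end its own activity (ENSMUSG00000021025, minus strand of chromosome 12, 55489411 to 55492647 in mm10). Its level was 52.1, 49.3 and 52.4 FPKM in the wild-type aortas. It was 78.6, 91.3 and 62.9 FPKM in the EC-Jag1KO aortas, with 1942 to 2864 reads behind each value. All 3 EC-Jag1KO libraries lay above all 3 wild-type libraries, and the ratio of the means was 1.51. The spread was unequal, with a coefficient of variation of 3.32% in wild-type and 18.3% in EC-Jag1KO. The log2 fold change was 0.57 (SE 0.14, 95% interval 0.24 to 0.91), with an unadjusted p of 0.0045 in limma that ranked 129 among 12165 genes and an adjusted p of 0.402. The exact two-sided permutation test gave p = 0.1, the smallest that 3 against 3 allows. Without EC-Jag1KO replicate 3, the lowest of its group, the log2 fold change was 0.71 (adjusted p = 0.222). In the 4 libraries without Xist it was 0.73 (adjusted p = 0.170), and the pair of Xist-expressing libraries stood at 52.4 and 62.9 FPKM. The summed level of 15 immediate early genes, which tissue handling can raise, overlapped at 836 to 982 against 666 to 1023 FPKM. Within that list 2 of 14 tested genes did not overlap between genotypes, in opposite directions, beside 13.6% of all tested genes. Of the 14, 4 had a log2 fold change above 0 and 10 below, with a median of -0.12. The stress-induced transcription factor Atf3 was at 25.0 to 29.0 FPKM in wild-type aorta and at 34.5 to 47.7 FPKM in EC-Jag1KO aorta, with a log2 fold change of 0.55 (adjusted p = 0.402) close to that of Nfkbia. The growth-response factor Egr1 was at 34.3 to 38.0 against 16.7 to 33.5 FPKM, with a log2 fold change of -0.55 (adjusted p = 0.630). The part of these stress genes and of the smooth muscle, fibroblast, mesothelial and erythroid marker differences in the Nfkbia result was not tested.

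Tnfaip3 encodes A20, a ubiquitin-editing enzyme that shuts down signalling upstream of IKK (ENSMUSG00000019850, minus strand of chromosome 10, 19000910 to 19015657). It was scarce, with 1.46, 1.21 and 1.63 FPKM in wild-type aorta and 1.89, 1.65 and 1.61 FPKM in EC-Jag1KO aorta, on 188 to 260 reads. The groups overlapped only between the highest wild-type and the lowest EC-Jag1KO library. Its log2 fold change of 0.16 (95% interval -0.16 to 0.48, adjusted p = 0.838) is damped by the pseudocount of 1, and on reads recovered from the FPKM values limma voom gave 0.25 (adjusted p = 0.746). The value was 0.092 without wild-type replicate 2.

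The adhesion molecules had lower or level means in EC-Jag1KO aorta, with wide overlap. Vcam1 encodes the endothelial ligand of integrin alpha-4 beta-1 and is also made by smooth muscle (ENSMUSG00000027962, minus strand of chromosome 3, 116110020 to 116129688). It had 19.0, 21.6 and 22.0 FPKM in wild-type aorta and 18.6, 14.2 and 22.9 FPKM in EC-Jag1KO aorta. The lowest and the highest of the 6 values were both EC-Jag1KO libraries, so the groups overlap. Vcam1 had a log2 fold change of -0.18 (95% interval -0.58 to 0.21, adjusted p = 0.849), and it moved to -0.011 without EC-Jag1KO replicate 2 and to -0.34 without EC-Jag1KO replicate 3.

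Icam1 encodes the ligand of the leukocyte integrins that contain the beta-2 chain (ENSMUSG00000037405, plus strand of chromosome 9, 21015960 to 21028797). It stood at 11.2, 11.1 and 9.50 FPKM in wild-type aorta and at 9.24, 9.13 and 13.1 FPKM in EC-Jag1KO aorta. EC-Jag1KO replicate 3 had the highest level of all 6 libraries, and the other 2 of its group had the lowest. The log2 fold change was -0.028 (95% interval -0.38 to 0.33, adjusted p = 0.980) with all libraries and -0.19 without EC-Jag1KO replicate 3. It turned to 0.055 without EC-Jag1KO replicate 2, and in the 4 libraries without Xist it was -0.26 (unadjusted p = 0.0404, adjusted p = 0.425).

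Among the chemokines only Ccl2, which was too low for the test, did not overlap between genotypes, with 12 to 29 reads in a library. Of all tested genes 13.6% did not overlap. Ccl2 encodes MCP-1, which recruits monocytes through the receptor CCR2 (ENSMUSG00000035385, plus strand of chromosome 11, 82035571 to 82037453). Wild-type aorta gave 0.811, 0.581 and 0.426 FPKM from 21, 16 and 12 reads. EC-Jag1KO aorta gave 0.833, 0.872 and 1.02 FPKM from 20, 19 and 29 reads. The closest values of the 2 groups, 0.811 and 0.833 FPKM, came from 21 and 20 reads and were not distinguishable at this depth. The exact two-sided permutation test gave p = 0.1, again the smallest possible. With no filter on low genes the limma log2 fold change was 0.25 (95% interval -0.038 to 0.55, adjusted p = 0.815), and voom on recovered reads gave 0.63 (adjusted p = 0.866).

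Cxcl1 encodes the neutrophil attractant KC (ENSMUSG00000029380, plus strand of chromosome 5, 90891241 to 90893115). Its levels were 2.04, 1.59 and 1.59 FPKM in wild-type aorta and 2.16, 1.64 and 1.34 FPKM in EC-Jag1KO aorta, on 31 to 46 reads. The EC-Jag1KO libraries spanned the whole wild-type range. EC-Jag1KO replicate 3, with the highest neutrophil markers, had the lowest Cxcl1. The log2 fold change was -0.023 (95% interval -0.40 to 0.36, adjusted p = 0.985), and it lay at 0.078 without that library.

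Cx3cl1 encodes fractalkine, a chemokine tethered to the membrane that also works as an adhesion molecule (ENSMUSG00000031778, plus strand of chromosome 8, 94772009 to 94782423). It had 6.42, 6.19 and 9.09 FPKM in wild-type aorta and 4.98, 5.10 and 6.84 FPKM in EC-Jag1KO aorta. In both genotypes the Xist-expressing library was the highest, and the groups overlapped through EC-Jag1KO replicate 3. The difference came to -0.30 on the log2 scale (95% interval -0.71 to 0.098, adjusted p = 0.735). Leaving out wild-type replicate 3 gave -0.15, leaving out EC-Jag1KO replicate 3 gave -0.43 (unadjusted p = 0.0419, adjusted p = 0.528), and leaving out both gave -0.27. The endothelial marker sum was highest in wild-type replicate 3, at 489 FPKM. It was 456 FPKM in EC-Jag1KO replicate 1, which had the lowest Cx3cl1, and 444 FPKM in EC-Jag1KO replicate 3. Pecam1, at 172 to 230 FPKM, is a large part of this sum, and the 10 endothelial markers did not all peak in the same library. The part of cell content in the Cx3cl1 values was not tested.

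Of the cytokines, Csf1 was abundant and Il6 was at the edge of detection. Csf1 encodes the growth factor that macrophages need to survive (ENSMUSG00000014599, minus strand of chromosome 3, 107741048 to 107760469). It had 42.3, 28.9 and 37.1 FPKM in wild-type aorta and 34.6, 35.0 and 34.6 FPKM in EC-Jag1KO aorta, on 2909 to 4173 reads. The EC-Jag1KO libraries lay inside the wild-type range and close together, with a coefficient of variation of 0.756% against 18.7% in wild-type. Csf1 had a log2 fold change of -0.038 (95% interval -0.37 to 0.29, adjusted p = 0.970), and it ran from -0.19 without wild-type replicate 2 to 0.081 without wild-type replicate 1. Wild-type replicate 2, the lowest in Csf1, is the library with the lowest adipocyte markers, whose part in the Csf1 values was not tested.

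Il6 encodes interleukin-6 (ENSMUSG00000025746, plus strand of chromosome 5, 30013161 to 30019968). It had 0 reads in all 3 wild-type libraries and in EC-Jag1KO replicate 1, 3 reads in EC-Jag1KO replicate 2 and 8 reads in EC-Jag1KO replicate 3. A count of 0 allows up to 3 reads, which are worth 0.107 to 0.139 FPKM in these libraries, and this limit covers counting error only. The level of 0.139 FPKM in EC-Jag1KO replicate 2 is therefore at that limit, and the 0.284 FPKM of EC-Jag1KO replicate 3 came from the library with the highest neutrophil markers. The exact two-sided permutation test gave p = 0.4.

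Irf1 encodes interferon regulatory factor 1, which NF-kB induces and which drives interferon-responsive genes (ENSMUSG00000018899, plus strand of chromosome 11, 53770014 to 53778374). Wild-type aorta gave 11.1, 10.8 and 15.5 FPKM, and EC-Jag1KO aorta gave 10.1, 10.3 and 8.41 FPKM. All 3 EC-Jag1KO libraries lay below all 3 wild-type libraries, with 10.8 and 10.3 FPKM as the nearest values. On the log2 scale the difference was -0.33 (SE 0.15, 95% interval -0.69 to 0.024), with an unadjusted limma p of 0.0630 and an adjusted p of 0.663. The exact two-sided permutation test gave p = 0.1. It was -0.18 without wild-type replicate 3 and -0.098 without both Xist-expressing libraries.

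**Figure D3:**
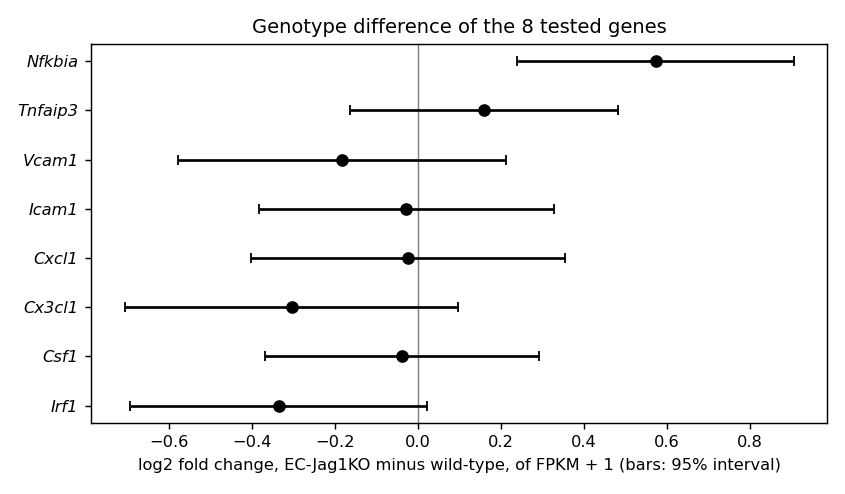
Log2 fold change, EC-Jag1KO minus wild-type, of FPKM + 1 for the 8 tested genes, with 95% intervals from limma as bars. The Nfkbia interval, 0.24 to 0.91, lies above 0 without adjustment for the number of genes, and the other 7 intervals span 0.

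The genes differed widely in level, on the FPKM scale that accounts for gene length. Over all 6 libraries the means ran from 64.4 FPKM for Nfkbia through 35.4 for Csf1, 19.7 for Vcam1, 11.03 for Irf1, 10.6 for Icam1 and 6.44 for Cx3cl1 to 1.73 for Cxcl1, 1.57 for Tnfaip3, 0.757 for Ccl2 and 0.0705 for Il6. Neighbours in this order did not overlap within either genotype, apart from Irf1 with Icam1 and Cxcl1 with Tnfaip3, which overlapped in both. Nfkbia stood above 92.4% of the tested genes, Csf1 above 85.1% and Vcam1 above 72.6%, while Tnfaip3 stood above 6.77%. Of the feedback inhibitors, one was the most abundant of the 10 genes and the other was among the scarce ones.

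The 8 tested genes did not move as a block from library to library. Wild-type replicate 3 had the highest level in 2 of them, Cx3cl1 and Irf1, and EC-Jag1KO replicate 3 in 2 others, Vcam1 and Icam1. EC-Jag1KO replicate 3 was at the same time the lowest library for Cxcl1 and Irf1. EC-Jag1KO replicate 2 had the highest Nfkbia and the lowest Vcam1 and Icam1. In that library Nfkbia deviated by 0.53 from its mean over the 6 libraries on the log2 scale, and Vcam1 by -0.43.

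**Figure D4:**
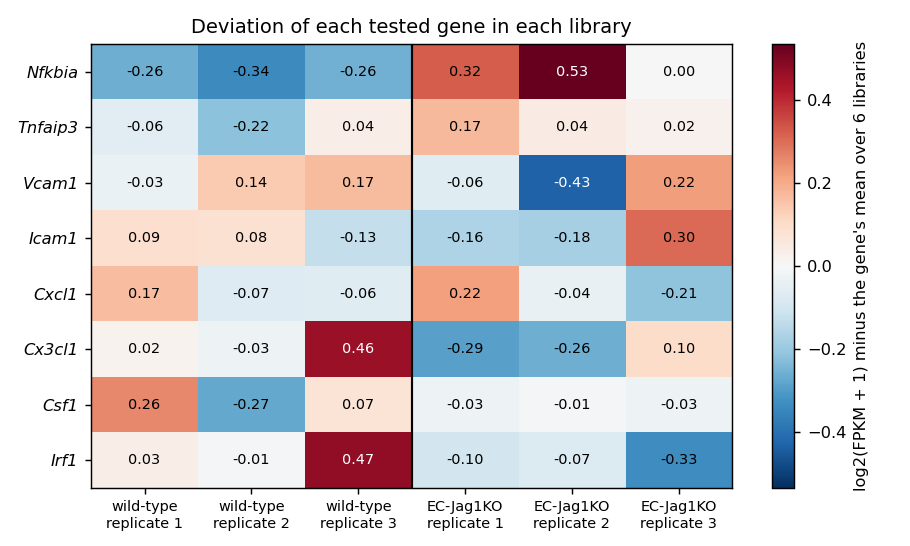
Level of each tested gene in each library as log2(FPKM + 1) minus its mean over the 6 libraries, red above and blue below the mean, with the 3 wild-type libraries left of the line. Nfkbia is below its mean in all 3 wild-type libraries, and no library is of 1 colour throughout.

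The rest of the NF-kB pathway was described from 74 listed genes, all matched, of which 51 were tested. Of these 0 passed at an adjusted p of 0.05, 3 had an unadjusted p under 0.05, beside 7.71% of all tested genes, and 5 had genotypes that did not overlap, beside 13.6%. Neither count stands above those shares. Their median log2 fold change was 0.047, with 31 above 0 and 20 below, where all tested genes had 6077 above and 6088 below. The NF-kB subunits lay close to 0, with 4 tested between -0.067 and 0.059. Nfkb2, the subunit gene of the non-canonical branch and the one of smallest p, had 10.7 ± 0.715 FPKM in wild-type aortas and 11.2 ± 0.216 FPKM in EC-Jag1KO aortas (SD, n = 3 each).

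The kinase genes pointed both ways. Chuk, which encodes the catalytic subunit IKK-alpha, had 10.3, 9.18 and 10.2 FPKM in wild-type aorta and 12.2, 11.1 and 12.4 FPKM in EC-Jag1KO aorta, without overlap. Ikbkb, which encodes the partner subunit IKK-beta, had 17.9, 18.03 and 18.6 against 13.6, 17.2 and 15.1 FPKM, also without overlap, and it may share reads with Gm15346. Their log2 fold changes were 0.25 (95% interval 0.025 to 0.47) and -0.24 (95% interval -0.49 to 0.0095), with adjusted p of 0.609 and 0.654 in limma. Map3k14, the kinase NIK of the non-canonical branch, had 2.23, 2.48 and 2.40 against 1.84, 1.95 and 1.71 FPKM, again without overlap. Its log2 fold change was -0.25 (adjusted p = 0.670), and it may share reads with an overlapping gene. Of the 12 tested genes of the IKK complex and upstream kinases 3 did not overlap, 1 higher and 2 lower in EC-Jag1KO aorta. Among all tested genes 13.6% did not overlap. Of the 9 tested inhibitors and regulators besides Nfkbia and Tnfaip3, Tnip1, a partner of A20, had the smallest p, with 11.2 ± 3.71 against 13.4 ± 3.50 FPKM (SD, n = 3 each).

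Of 7 listed upstream ligands only 1 reached the mean needed for the test. Tnf had at most 8 reads in a library, with 0 reads in 2 wild-type and 1 EC-Jag1KO library, and Il1a had at most 8 reads. Il1b had 0, 0.176 and 0.115 FPKM in wild-type aorta and 0.101, 0.297 and 0.455 FPKM in EC-Jag1KO aorta, on at most 16 reads, and reads of its antisense gene Il1bos may be counted with it. Lta, Tnfsf11 and Ltb had at most 5, 3 and 19 reads. Tnfsf12, the TWEAK gene, was the 1 tested ligand, at 16.1 ± 2.36 against 14.6 ± 3.23 FPKM (SD, n = 3 each), and it shares its locus with a read-through gene. Of the 15 tested receptors and adapters, Tlr4, the endotoxin receptor, had the smallest p, with 5.18, 4.90 and 5.01 FPKM in wild-type aorta and 7.76, 6.12 and 9.12 FPKM in EC-Jag1KO aorta. The groups did not overlap, and the log2 fold change of 0.51 (95% interval 0.18 to 0.84) had an adjusted p of 0.443.

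Among 24 other NF-kB targets only 10 were expressed enough to be tested, with a median log2 fold change of 0.030. Ptgs2, the inducible prostaglandin synthase COX-2, had the smallest p, at 5.47, 4.72 and 3.77 FPKM in wild-type aorta and 8.37, 6.15 and 6.44 FPKM in EC-Jag1KO aorta. The groups did not overlap, and its log2 fold change was 0.50 (95% interval 0.13 to 0.87, adjusted p = 0.520). Sele, the endothelial selectin that inflammation induces, stayed at 0.0668 to 0.218 FPKM in wild-type libraries and had 0.188, 0.190 and 0.689 FPKM in EC-Jag1KO aorta, the last from replicate 3. Cxcl2, Ccl20 and Madcam1 had at most 3 reads in any library.

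**Figure D5:**
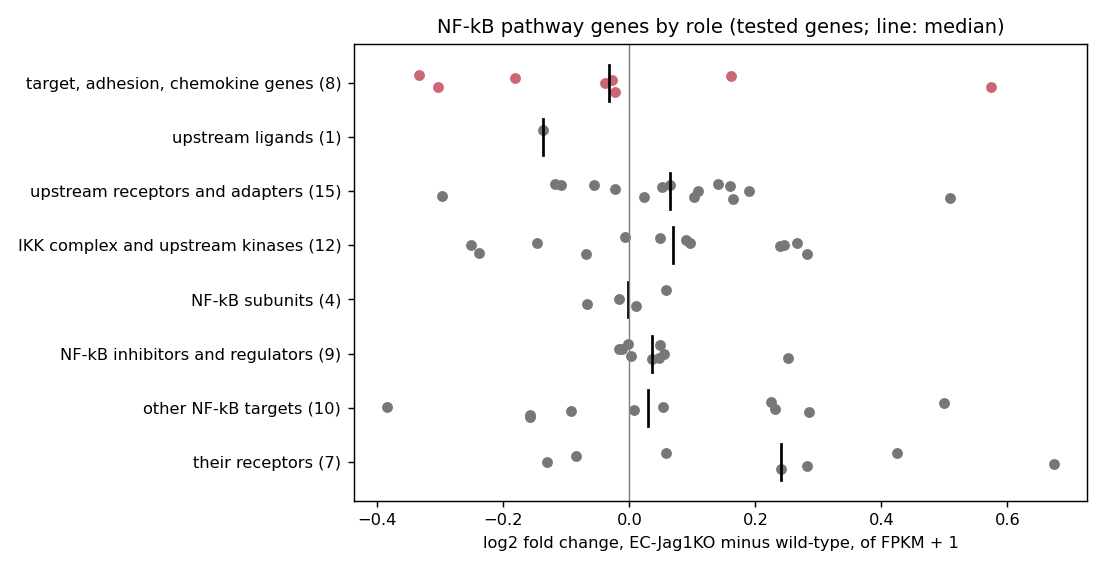
Log2 fold change, EC-Jag1KO minus wild-type, of FPKM + 1 for tested genes of the NF-kB pathway grouped by role, with the number tested in brackets and the group median as a line. The 8 tested genes of the main list are in red, and 0 of the genes shown passed the adjusted threshold.

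Of 12 receptor genes for the adhesion molecules, chemokines and cytokines among the 10 genes, 7 were tested and 0 passed, as for all tested genes (0%). At an unadjusted p under 0.05 there was 1 of the 7, beside 7.71% of all tested genes, and the same gene was the 1 without overlap, beside 13.6%. That gene was Il6ra, the interleukin-6 receptor chain, with 4.72, 3.01 and 3.88 FPKM in wild-type aorta and 6.01, 6.68 and 7.45 FPKM in EC-Jag1KO aorta. The log2 fold change was 0.67 (95% interval 0.32 to 1.03, adjusted p = 0.402), while its ligand gene Il6 had 0 reads in 4 of the 6 libraries. Il6st, the shared signalling chain, had 53.9 ± 2.56 against 51.3 ± 9.75 FPKM (SD, n = 3 each). The leukocyte receptors ranged widely in level. Csf1r, the receptor of the Csf1 product on macrophages, had 9.23 to 14.1 FPKM in wild-type aorta and 13.0 to 18.5 FPKM in EC-Jag1KO aorta, with the highest value in EC-Jag1KO replicate 3. Cxcr2, which binds the Cxcl1 product, had 0.722 FPKM in EC-Jag1KO replicate 3 and at most 0.139 FPKM elsewhere. Ccr2 likewise had 0.792 FPKM in EC-Jag1KO replicate 3 and 0.232 to 0.458 FPKM in the other libraries. Cx3cr1, the receptor of the Cx3cl1 product, went the other way, with 0.443, 0.502 and 0.459 FPKM in wild-type aorta and 0.0735, 0.162 and 0.424 FPKM in EC-Jag1KO aorta. These values came from 6 to 47 reads and did not overlap (limma with no filter, adjusted p = 0.778), beside 13.6% of all tested genes. Other genes overlap the Cx3cr1 locus and may share reads with it. The Cxcr2 and Ccr2 values move with the neutrophil markers of EC-Jag1KO replicate 3, and the part of leukocyte content in the Icam1 and Il6 values of that library was not tested.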

How the data were processed

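Whole-aorta RNA was sequenced in 3 wild-type and 3 EC-Jag1KO libraries. The authors deposited FPKM values for 35275 genes, per the file headers; the submitters' processing notes list STAR, HTSeq and edgeR, without roles or versions, and mm10 as build. No source used here states the annotation release, strand setting or filters, so overlapping genes may share reads. Value times gene length gave whole reads for 211650 of 211650 values (within 0.05), which gives the depth.

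Analysis used log2(FPKM + 1), which understates fold changes at low levels. The 12165 genes averaging 1 FPKM or more entered limma 3.58.1 (R 4.3.3) in a fit on genotype alone, with an intensity trend, two-sided p-values and a threshold of 0.05 after Benjamini-Hochberg adjustment. Single genes also had an exact permutation test of FPKM (scipy 1.17.1). The test was checked on simulated data in which all genes shared the same spread, so the check does not give its power or error in these data. Plots used matplotlib 3.10.9. Intervals are 95%.

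The genes named are the 10 members; in each list of pathway and receptor genes, those past the threshold and the one of smallest p; and the upstream ligands. Ikbkb, Map3k14, Il6st, Csf1r, Cx3cr1, Cxcr2, Ccr2, Atf3, Egr1, Myocd, Acta2, Cnn1, Sele, Cxcl2, Ccl20 and Madcam1 were picked after their values were seen. Pdgfra, Lum, Cd34, Msln, Krt19 and Pecam1 were picked likewise. Members and lists were chosen with earlier results of these data known. Alternatives covered the pseudocount, the filter, quantile scaling, the variance trend, voom on recovered reads, the replicate number as a block, and libraries left out. No per-sample column was left unused (0). Chi-square per degree of freedom between libraries was 26.4 to 79.7, so no pair is a single library entered again.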

Additional observations from a re-analysis of the deposited data

How the results depend on the processing

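Of the 10 genes 0 passed the adjusted threshold under any of the 13 alternatives, and so did 0 of the 51 tested pathway genes. Nfkbia kept its direction throughout, with log2 fold changes of 0.45 to 0.73 and adjusted p of 0.170 to 0.967, and Irf1 ran from -0.42 to -0.098, Cx3cl1 from -0.43 to -0.15, Vcam1 from -0.34 to -0.011 and Tnfaip3 from 0.092 to 0.25. With a library left out, Icam1 ran from -0.19 to 0.055, Cxcl1 from -0.14 to 0.078 and Csf1 from -0.19 to 0.081, so their directions are not fixed by these data. Cxcl1 was also at 0.040 without both Xist-expressing libraries. The median of the 8 tested genes ran from -0.11 to 0.032 with a library left out. Over all genes limma called 0 with all libraries, where 938 had an unadjusted p under 0.05 and voom called 0. It called 0 to 4 with a library left out, the 4 without EC-Jag1KO replicate 1, and 2, Gm10020 and Gm6472, without both Xist-expressing libraries, and the cause was not tested. With the replicate number as a block 0 genes passed and Nfkbia had an unadjusted p of 0.0106. Same-numbered libraries deviated with correlations of 0.055, 0.051 and -0.050, and not every library correlated best with its own number. Deviations from means of only 3 libraries cannot show whether the numbers pair the samples, and the labels do not say. Both libraries numbered 3 are the ones that express Xist. Depth limits Ccl2, Cxcl1 and Il6, which rest on 46 reads or fewer per library.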
